A study of Mus musculus with 12 samples.

Results

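The transforming growth factor β (TGFβ) pathway was followed in bone marrow-derived macrophages (BMDMs) through 10 genes, selected by symbol from the 48526 genes of the count table: the ligands *Tgfb1*, *Tgfb2* and *Tgfb3*, the receptors *Tgfbr1* and *Tgfbr2*, the signal transducers *Smad2*, *Smad3* and *Smad4*, the inhibitor *Smad7*, and *Tgfbi*, a secreted matrix protein named for its induction by TGFβ. The rule for choosing them uses symbols and no threshold on a value. The macrophages were grown from whole bone marrow of 3 female C57Bl/6J mice in medium with mCSF, the growth factor that drives macrophage differentiation, and were used on day 7. Each mouse gave untreated cells and cells exposed for 16 hr to 100 ng/mL Wnt3a, to 100 pg/mL IL-4 or to both, so that 12 samples formed 4 groups of 3. Wnt3a is a secreted activator of Wnt signaling, and IL-4 is the cytokine that drives alternative activation of macrophages. The comparison asked whether Wnt3a changes what macrophages do in response to a low dose of IL-4.

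TGFβ is secreted in a latent form, bound to its own propeptide and often to a further anchoring protein, and must be released before it can act. The freed ligand brings together the type II receptor *Tgfbr2* and the type I receptor *Tgfbr1*, which phosphorylates Smad2 and Smad3. These join Smad4, enter the nucleus and regulate target genes, among them *Smad7*, which feeds back to shut the receptor off. In macrophages TGFβ is known for restraining inflammatory activation and for maintaining the gene program of microglia. All values here are RNA levels, and neither release of the ligand nor Smad phosphorylation was measured. In bulk RNA, fewer cells of a type and less RNA per cell cannot be told apart.

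The deposited Wnt3a and Wnt3a+IL-4 columns of a mouse hold shared reads. Within each mouse, 0 of 48526 genes broke the bounds that shared reads impose, against 6681 to 8625 genes when columns of different mice were combined. The columns were therefore separated into the libraries that make them up. Subtracting the Wnt3a+IL-4 counts from the Wnt3a counts gave a library called the difference. Subtracting that library from the Wnt3a+IL-4 counts gave the remainder. Both come from Wnt3a-treated cells, but the labels do not say which also received IL-4; neither assignment was inferred from the values. The 12 resulting libraries held from 13342492 to 17453377 counts. Levels are given as CPM, a gene's count scaled to the library total after adjustment by the trimmed mean of M values (TMM), with values listed for mouse 1, 2 and 3 in that order. The 12421 genes that reached 10 counts in 3 or more libraries were tested together, all 12 libraries at once, with edgeR's quasi-likelihood test. A gene was called at a Benjamini-Hochberg adjusted p below 0.05 over all of them. Every adjusted p below comes from this test unless another is named. Each ± after a log2 fold change is an approximate standard error. It is the size of the change divided by the square root of the test's F statistic.

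The cells carried the macrophage identity in every library. Summed over 10 macrophage markers, levels were between 44843 and 69291 CPM, and each marker was above the detection floor of 3 counts in every group. Lymphocyte markers summed to at most 0.505 CPM, and mast cell and basophil markers to at most 0.611 CPM. Against untreated cells, 3.4% of all tested genes were called with IL-4 alone, 23.2% in the difference and 25.3% in the remainder. Among 13 genes known to respond to IL-4, 8 rose and 0 fell with IL-4 alone, 3 rose and 2 fell in the difference, and 12 rose and 0 fell in the remainder. Of 11 Wnt target genes, 6 were at the floor in every library and only 3 could be tested, of which *Rnf43* and *Ccnd1* fell and 0 rose in both the difference and the remainder. *Axin2*, the usual readout of Wnt signaling, was too low to test, at 0 to 0.0639 CPM without Wnt3a, 0.0572 to 0.364 CPM in the difference and 0.553 to 0.854 CPM in the remainder.

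On the mouse genome build mm10, the ligand genes lie at chr7:25687002-25705077 on the plus strand (*Tgfb1*, ENSMUSG00000002603), chr1:186622792-186705989 on the minus strand (*Tgfb2*, ENSMUSG00000039239) and chr12:86056745-86079041 on the minus strand (*Tgfb3*, ENSMUSG00000021253). The receptor genes lie at chr4:47353222-47414931 on the plus strand (*Tgfbr1*, ENSMUSG00000007613) and chr9:116084293-116175360 on the minus strand (*Tgfbr2*, ENSMUSG00000032440). *Smad3* (ENSMUSG00000032402) lies at chr9:63646767-63757994 on the minus strand and *Tgfbi* (ENSMUSG00000035493) at chr13:56609523-56639562 on the plus strand. The Smad genes not listed are given with their values below. All 10 genes are protein-coding. Shared sequence was slight, since at most 0.586% of the 50-base stretches of any of these genes recurred in another gene. Genes on the opposite strand covered 12.4% of the exon bases of *Tgfb3* and 2.14% of those of *Tgfb2*, and as the strand setting of the counting is not given in the sources used here, reads from such neighbours cannot be told apart.

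The promoters of *Tgfbi*, *Smad3* and *Tgfbr2* are shown because, among the genes whose windows were examined, these were called in the remainder against untreated cells. Windows of up to 250 bases ending just before the start of transcription, from RefSeq on GRCm38.p6, were examined for 6 of the 10 genes. No window was available for *Tgfb3*, and *Smad2*, *Smad4* and *Smad7* were left out of the search. That of *Tgfbi* spans chr13:56609336-56609522 on the plus strand, that of *Smad3* spans chr9:63757995-63758244 on the minus strand, and that of *Tgfbr2* spans chr9:116175364-116175613 on the minus strand, each written 5′ to 3′ with capitals reserved for motif matches.
*Tgfbi*: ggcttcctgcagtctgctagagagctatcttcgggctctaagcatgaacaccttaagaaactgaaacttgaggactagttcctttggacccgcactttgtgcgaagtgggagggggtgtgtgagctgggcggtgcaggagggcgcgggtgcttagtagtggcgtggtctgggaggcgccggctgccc
*Smad3*: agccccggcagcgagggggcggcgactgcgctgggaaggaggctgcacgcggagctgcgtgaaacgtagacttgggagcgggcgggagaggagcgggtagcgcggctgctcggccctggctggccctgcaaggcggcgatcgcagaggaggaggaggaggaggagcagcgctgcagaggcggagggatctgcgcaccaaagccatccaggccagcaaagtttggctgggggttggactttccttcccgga
*Tgfbr2*: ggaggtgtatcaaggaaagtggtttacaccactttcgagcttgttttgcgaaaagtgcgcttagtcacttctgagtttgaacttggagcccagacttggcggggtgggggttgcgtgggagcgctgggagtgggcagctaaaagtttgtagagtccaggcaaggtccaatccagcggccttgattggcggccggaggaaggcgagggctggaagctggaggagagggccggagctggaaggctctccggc
The letters searched on both strands were CTTTGA for TCF/LEF, TGANTCA for AP-1, TTCNNNGAA for STAT factors and the same with a spacer of 4 bases for STAT6, GTCTAGAC for the Smad box and CAGACA for a shorter Smad-binding stretch, with N standing for any base. None of them was in these windows, so no base is in capitals. GC content was 59.4% for *Tgfbi*, 69.2% for *Smad3* and 58.4% for *Tgfbr2*, beside a median of 52.4% over all 32851 windows. Over all windows, CTTTGA was present in 13.8%, TGANTCA in 6.75%, TTCNNNGAA in 7.02%, the STAT6 form in 5.85%, GTCTAGAC in 0.167% and CAGACA in 17.1%. The window of *Tgfb1* also had no match. CAGACA occurred 204 bases before the start of *Tgfb2* and 203 bases before the second start of *Tgfbr1*. A missing match says only that these letters are not in this window.

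Untreated BMDMs had RNA for the whole signaling chain, with *Tgfb1* as the main ligand. Per kilobase of exon, untreated levels were 82.5 ± 10.2 CPM for *Tgfb1* (SD, n = 3 for each gene), 56.5 ± 5.59 for *Tgfbi*, 25.8 ± 2.64 for *Tgfbr2*, 21.1 ± 7.68 for *Tgfbr1* and 14.7 ± 0.872 for *Smad4*. They were 4.66 ± 0.803 CPM per kilobase for *Smad3*, 4.57 ± 0.215 for *Smad2*, 2.53 ± 0.126 for *Smad7*, 0.541 ± 0.051 for *Tgfb3* and 0.021 ± 0.019 for *Tgfb2*. Neighbours in this order overlapped in 3 places, where *Tgfbr1* (12.8 to 28.0 CPM per kilobase) spanned both *Tgfbr2* (22.8 to 27.4) and *Smad4* (13.9 to 15.6), and *Smad3* (3.82 to 5.42) spanned *Smad2* (4.43 to 4.81). In both kinds of Wnt3a-treated library *Tgfbi* headed the order instead of *Tgfb1*, at 295 ± 3.98 against 71.5 ± 1.04 CPM per kilobase in the difference and 230 ± 18.1 against 74.9 ± 5.35 in the remainder.

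**Figure D1:**
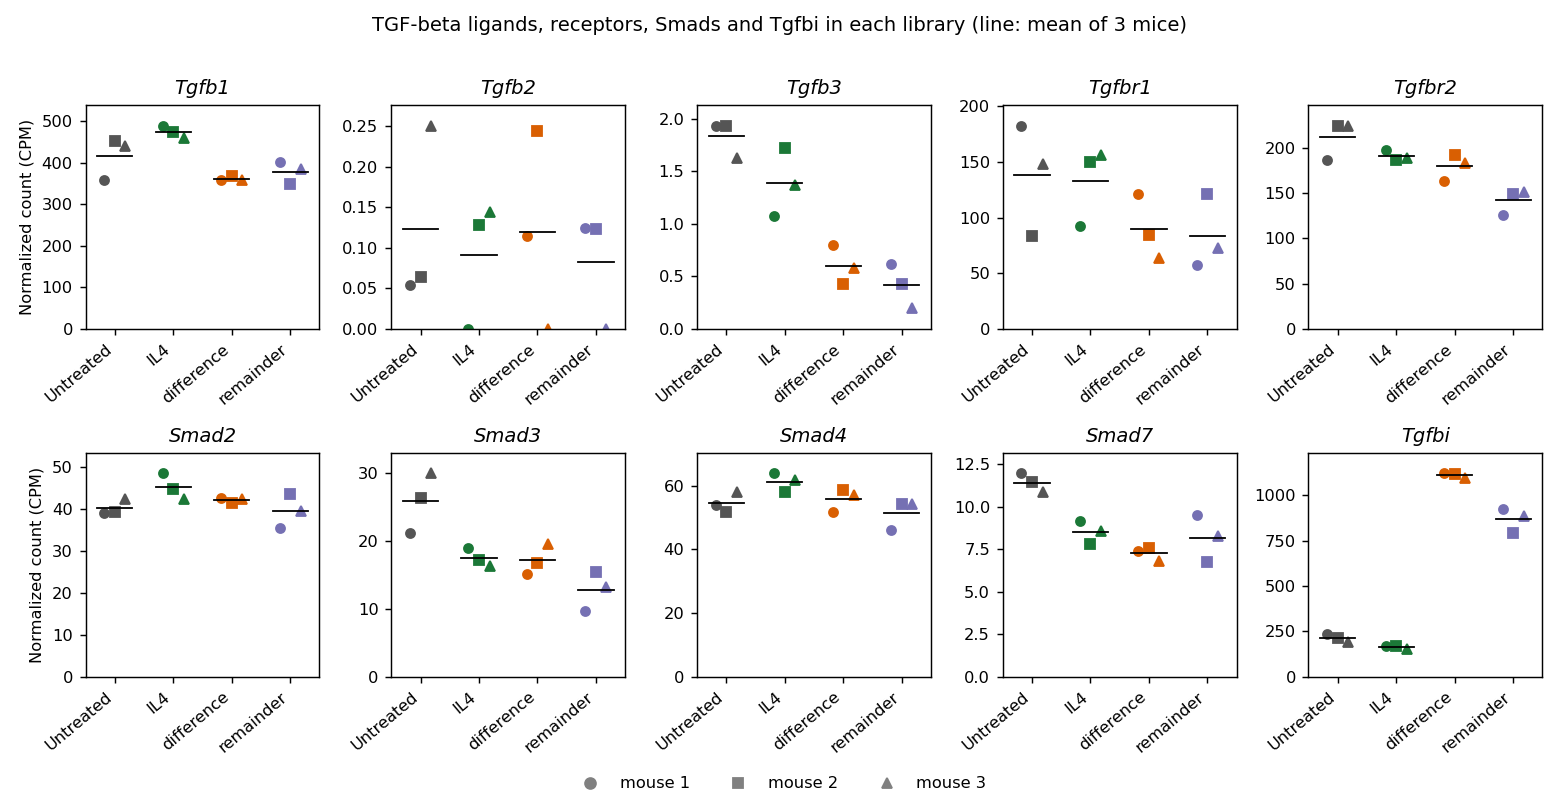
Normalized count in CPM (y axis, linear and starting at 0) of each of the 10 genes in the untreated, IL-4, difference and remainder libraries (x axis). Each point is a library, its shape gives the mouse, and the line is the mean of 3 mice. *Tgfbi* lies between 792 and 1123 CPM in the Wnt3a-treated libraries and at or below 234 CPM in the others, while *Smad2* stays between 35.5 and 48.5 CPM throughout.

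Among the ligands, *Tgfb3* fell in Wnt3a-treated cells and *Tgfb1* was lower in them than in cells given IL-4 alone. *Tgfb3* was at 1.93, 1.93 and 1.63 CPM in untreated cells, 1.08, 1.73 and 1.37 CPM with IL-4, 0.801, 0.427 and 0.582 CPM in the difference and 0.621, 0.430 and 0.197 CPM in the remainder. The 6 Wnt3a-treated libraries all lay below the other 6. *Tgfb3* fell by 1.58 ± 0.34 on the log2 scale in the difference (adjusted p = 0.0034) and by 2.11 ± 0.36 in the remainder (adjusted p = 0.00053), which is 2.99-fold and 4.31-fold lower. With IL-4 alone its log2 fold change was -0.40 ± 0.30 (adjusted p = 0.62). These levels rest on few reads, 26 to 36 in the untreated libraries and 3 to 14 in the Wnt3a-treated ones, and without mouse 2 the adjusted p of the difference was 0.054.

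*Tgfb1* encodes the ligand most made by macrophages. Its levels were 357, 452 and 439 CPM in untreated cells, 489, 473 and 459 CPM with IL-4, 357, 367 and 358 CPM in the difference and 401, 348 and 384 CPM in the remainder. The IL-4 libraries were above all others, while the Wnt3a-treated libraries overlapped the untreated ones because of the low untreated value of mouse 1. Against untreated cells the log2 fold change was 0.19 ± 0.09 with IL-4 (adjusted p = 0.37), -0.21 ± 0.09 in the difference (adjusted p = 0.12) and -0.14 ± 0.09 in the remainder (adjusted p = 0.28). Against IL-4 alone *Tgfb1* fell by 0.39 ± 0.09 in the difference (adjusted p = 0.0058) and by 0.33 ± 0.09 in the remainder (adjusted p = 0.019). The call in the remainder was lost without the IL-4 library of mouse 1 (adjusted p = 0.06) or the remainder library of mouse 2 (adjusted p = 0.051). Without the untreated library of mouse 1, *Tgfb1* was called lower in the difference than in untreated cells (log2 fold change -0.31, adjusted p = 0.015). *Tgfb2* was at or near the floor in every library, with at most 4 reads in any of them, and was not tested.

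Of the receptors, *Tgfbr2* was lowest in the remainder. It was at 187, 223 and 224 CPM in untreated cells, 197, 186 and 189 CPM with IL-4, 163, 192 and 184 CPM in the difference and 126, 149 and 152 CPM in the remainder. The 3 remainder libraries were below the other 9. *Tgfbr2* fell by 0.57 ± 0.10 on the log2 scale in the remainder against untreated cells (adjusted p = 0.00048), by nearly the same amount in each mouse (-0.57, -0.59 and -0.57). It fell by 0.43 ± 0.10 against IL-4 alone (adjusted p = 0.0053). In the difference the log2 fold change against untreated cells was -0.24 ± 0.10 (adjusted p = 0.091). *Tgfbr2* was called lower there without the untreated library of mouse 1 (-0.32, adjusted p = 0.03) or without mouse 1 (-0.26, adjusted p = 0.037). The remainder was lower than the difference in 3 of 3 mice by 0.34 ± 0.10, with an adjusted p of 0.059, which became 0.044 when the mouse was a replicate block. It was also called without the untreated library of mouse 1 (adjusted p = 0.042), the difference library of mouse 1 (0.041) or the remainder library of mouse 2 (0.042). With IL-4 alone it was -0.15 ± 0.10 (adjusted p = 0.55).

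*Tgfbr1* varied too much between the libraries of a group to be called in any comparison. Its levels were 183, 83.7 and 148 CPM in untreated cells, 92.5, 150 and 156 CPM with IL-4, 121, 84.4 and 63.9 CPM in the difference and 57.7, 121 and 72.4 CPM in the remainder. Every pair of groups overlapped. The log2 fold change against untreated cells was -0.06 ± 0.31 with IL-4 (adjusted p = 0.97), -0.62 ± 0.32 in the difference (adjusted p = 0.18) and -0.72 ± 0.32 in the remainder (adjusted p = 0.11). The highest and lowest untreated library differed 2.18-fold for *Tgfbr1*, against 1.20-fold for *Tgfbr2*. The remainder was called lower than untreated cells without the untreated library of mouse 2 (log2 fold change -0.98, adjusted p = 0.026) or the remainder library of mouse 2 (-1.09, adjusted p = 0.027). It was called lower than IL-4 alone without the remainder library of mouse 2 (-1.02, adjusted p = 0.042).

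The spread of *Tgfbr1* was shared with other genes in the same libraries. When group means were subtracted, the first principal component of the 12421 tested genes held 32.1% of the remaining variance. Scores on this component were ranked by size over the 9294 genes averaging 5 CPM or more. *Tgfbr1* ranked 25 of 9294, with the nuclear RNA *Malat1* at 8, the nuclear pore gene *Ranbp2* at 10 and the ion channel gene *Trpm7* at 16. Of the other genes of the pathway ranked there, *Tgfb1* stood highest, at 4283. *Malat1* was at 340, 176 and 252 CPM in untreated cells, 76.1, 291 and 217 CPM with IL-4, 223, 138 and 121 CPM in the difference and 182, 359 and 175 CPM in the remainder. *Ranbp2* was at 62.0, 23.2 and 53.9 CPM in untreated cells and 30.1, 39.4 and 47.0 CPM with IL-4. In the difference it was at 62.2, 37.0 and 31.6 CPM and in the remainder at 24.5, 43.8 and 20.4 CPM. In the untreated, IL-4 and difference libraries, the mouse lowest in *Tgfbr1* was also lowest in *Malat1* and *Ranbp2*. In the remainder mouse 2 was highest in all 3 genes, but the lowest was mouse 1 for *Tgfbr1* and mouse 3 for *Malat1* and *Ranbp2*. With IL-4 the highest was mouse 3 for *Tgfbr1* and *Ranbp2* and mouse 2 for *Malat1*. These genes all rank high on the same component, so their likeness follows from that and is no separate result. The ranking was examined after the spread of *Tgfbr1* had been seen, and what these libraries differ in was not tested.

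**Figure D2:**
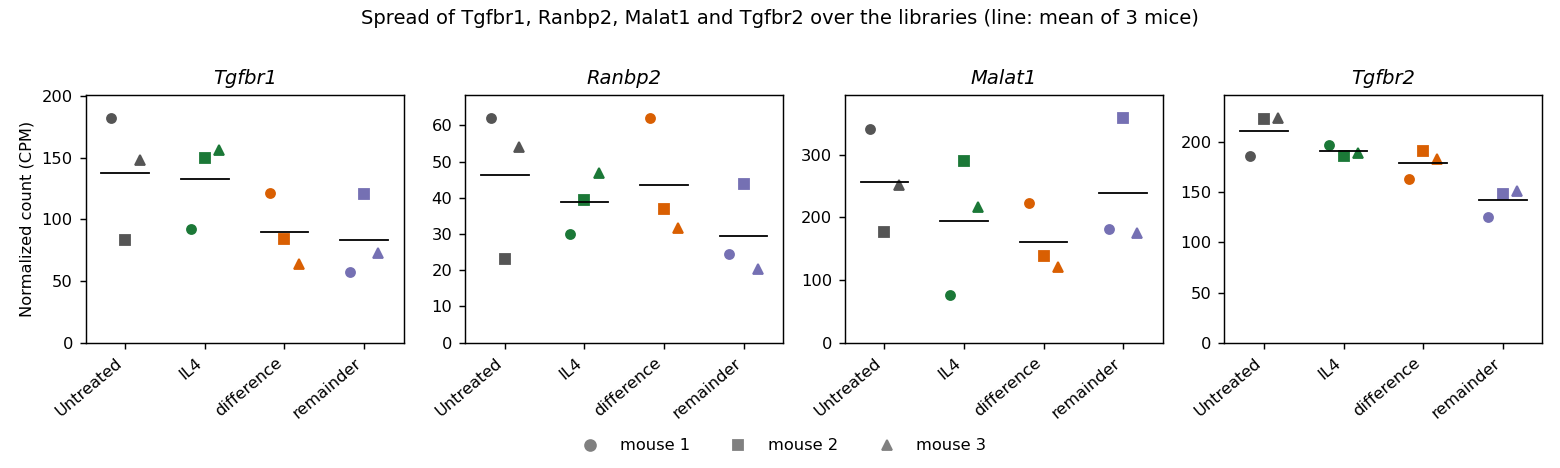
Normalized count in CPM (y axes, linear and starting at 0) of *Tgfbr1*, *Ranbp2*, *Malat1* and *Tgfbr2* in the 4 groups of libraries (x axes), with 1 point per library, shapes for mice and lines for the means of 3 mice. Mouse 2 is lowest in the untreated group and highest in the remainder group for *Tgfbr1*, *Ranbp2* and *Malat1*, but not for *Tgfbr2*.

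*Smad3* was the receptor-activated Smad that moved. It was at 21.2, 26.3 and 30.04 CPM in untreated cells, 18.9, 17.3 and 16.3 CPM with IL-4, 15.1, 16.7 and 19.6 CPM in the difference and 9.69, 15.4 and 13.3 CPM in the remainder. All 9 treated libraries were below the 3 untreated ones. *Smad3* fell by 1.01 ± 0.17 on the log2 scale in the remainder (adjusted p = 0.00047), 2.02-fold lower, and by 0.59 ± 0.17 in the difference (adjusted p = 0.018). With IL-4 alone it was lower in 3 of 3 mice, with a log2 fold change of -0.56 ± 0.17 and an adjusted p of 0.095, which was 0.033 in DESeq2. The call in the difference was lost without the untreated library of mouse 3 (adjusted p = 0.072) or the difference library of mouse 1 (0.065) or mouse 2 (0.061). With IL-4 alone a call was gained without the untreated library of mouse 1 (adjusted p = 0.049) or the remainder library of mouse 1 (0.039) or mouse 2 (0.046).

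*Smad2* (ENSMUSG00000024563), the other receptor-activated Smad, and *Smad4* (ENSMUSG00000024515), both on chromosome 18, were not called in any comparison, although *Smad4* was called lower in the remainder than with IL-4 alone with total counts as library size (-0.30, adjusted p = 0.03). *Smad2* was at 38.9, 39.2 and 42.3 CPM in untreated cells, 48.5, 44.7 and 42.3 CPM with IL-4, 42.6, 41.3 and 42.3 CPM in the difference and 35.5, 43.4 and 39.6 CPM in the remainder. Its log2 fold changes against untreated cells were 0.17 ± 0.09 with IL-4 (adjusted p = 0.43), 0.07 ± 0.09 in the difference (0.63) and -0.02 ± 0.09 in the remainder (0.89). *Smad4*, the partner shared with the BMP branch, was at 53.8, 51.7 and 58.0 CPM in untreated cells, 64.0, 58.0 and 61.9 CPM with IL-4, 51.7, 58.7 and 57.1 CPM in the difference and 46.0, 54.1 and 54.3 CPM in the remainder. Its log2 fold changes were 0.17 ± 0.09 (adjusted p = 0.42), 0.04 ± 0.09 (0.82) and -0.08 ± 0.09 (0.54). The ratio of *Smad3* to *Smad2*, both per kilobase, was 0.863 to 1.13 in untreated cells, 0.611 to 0.619 with IL-4, 0.561 to 0.732 in the difference and 0.433 to 0.561 in the remainder. No treated library reached the lowest untreated ratio.

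*Smad7* (ENSMUSG00000025880, also on chromosome 18), the inhibitory Smad, fell in Wnt3a-treated cells. It was at 11.99, 11.4 and 10.9 CPM in untreated cells, 9.17, 7.80 and 8.59 CPM with IL-4, 7.38, 7.57 and 6.83 CPM in the difference and 9.50, 6.76 and 8.28 CPM in the remainder. Each treated library was below the untreated ones. *Smad7* fell by 0.65 ± 0.14 on the log2 scale in the difference (adjusted p = 0.0032) and by 0.48 ± 0.14 in the remainder (adjusted p = 0.018). The log2 fold change with IL-4 was -0.42 ± 0.14 (adjusted p = 0.13). The call in the remainder was lost without the untreated library of mouse 1 (adjusted p = 0.065) or the remainder library of mouse 2 (0.057). It was also lost without mouse 2 (0.13) or when only the groups compared were fitted (0.067).

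*Tgfbi* rose with Wnt3a and fell slightly with IL-4. It was at 234, 214 and 192 CPM in untreated cells, 168, 171 and 154 CPM with IL-4, 1123, 1118 and 1095 CPM in the difference and 924, 792 and 888 CPM in the remainder. The 4 groups did not overlap. *Tgfbi* rose by 2.38 ± 0.09 on the log2 scale in the difference (5.22-fold, adjusted p = 1.1e-09) and by 2.03 ± 0.09 in the remainder (4.07-fold, adjusted p = 2.7e-09). With IL-4 alone it fell by 0.38 ± 0.09 (1.30-fold lower, adjusted p = 0.029), and the remainder was lower than the difference by 0.36 ± 0.09 (1.28-fold, adjusted p = 0.028). Both of these smaller calls depended on single libraries. That for IL-4 was lost without the IL-4 library of mouse 1 (adjusted p = 0.077), mouse 2 (0.071) or mouse 3 (0.11), or the untreated library of mouse 1 (0.13) or mouse 2 (0.068). That between remainder and difference was lost without the difference library of mouse 1 (0.091), mouse 2 (0.09) or mouse 3 (0.076), or the remainder library of mouse 2 (0.056) or mouse 3 (0.078).

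More of the 9 tested genes were called with Wnt3a than with IL-4 alone, and the same was true over all genes. With IL-4 alone 1 of 9 was called (*Tgfbi*), where 3.4% of all genes tested were called (2.31% higher and 1.09% lower). In the difference 4 of 9 were called against untreated cells, 1 higher and 3 lower, where 23.2% of all genes were called (11.8% higher and 11.4% lower). In the remainder 5 of 9 were called, 1 higher and 4 lower, where 25.3% of all genes were called (13.6% higher and 11.7% lower). Median log2 fold changes of the 9 genes were -0.15, -0.24 and -0.48 in these 3 comparisons, beside -0.0030, -0.012 and -0.024 over all genes. The 3 comparisons share the untreated libraries.

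**Figure D3:**
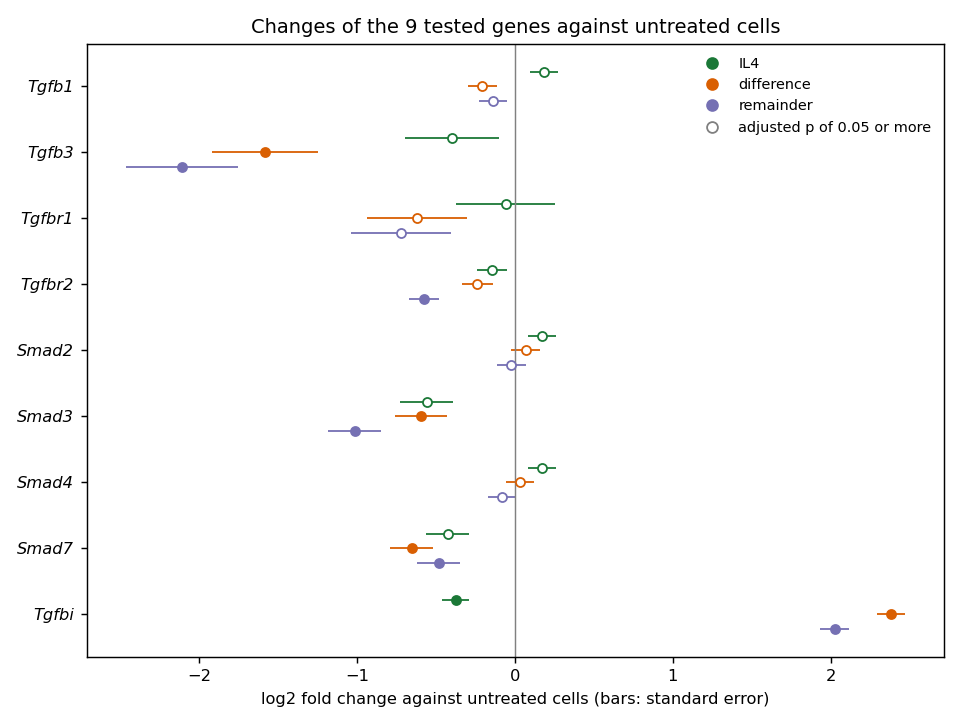
log2 fold change against untreated cells (x axis) of the 9 tested genes (y axis) for the IL-4, difference and remainder libraries, n = 3 each. Bars are approximate standard errors, and filled points have an adjusted p below 0.05. *Tgfbi* is the only gene far to the right, at 2.38 and 2.03, and *Tgfb3* is farthest to the left, at -1.58 and -2.11.

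Against IL-4 alone, 3 of 9 genes were called in the difference, where 20.3% of all genes were called (10% higher and 10.3% lower). In the remainder 4 of 9 were called, where 20.3% of all genes were called (10.6% higher and 9.67% lower). Medians were -0.13 and -0.33, beside -0.0079 and -0.016 over all genes. *Tgfbi* rose by 2.76 ± 0.09 on the log2 scale in the difference (adjusted p = 2.4e-10) and by 2.40 ± 0.09 in the remainder (adjusted p = 8e-10). *Tgfb3* fell by 1.18 ± 0.35 in the difference (adjusted p = 0.026) and fell by 1.71 ± 0.37 in the remainder (adjusted p = 0.0043). The *Tgfb3* call in the remainder was lost without mouse 2 (adjusted p = 0.052) or mouse 3 (adjusted p = 0.11). That in the difference was lost in DESeq2 (adjusted p = 0.059) and without the IL-4 library of mouse 2 (adjusted p = 0.12) or mouse 3 (0.064) or the difference library of mouse 2 (0.11) or mouse 3 (0.072). *Tgfb1* was the other gene lower in both, and *Tgfbr2* was lower in the remainder. For *Smad3*, the log2 fold change against IL-4 alone was -0.03 ± 0.17 in the difference (adjusted p = 0.92) and -0.46 ± 0.17 in the remainder (adjusted p = 0.078), and the latter was called without the remainder library of mouse 2 (-0.59, adjusted p = 0.025). Between the remainder and the difference, 1 of 9 genes was called (*Tgfbi*), where 5.25% of all genes were called (2.87% higher and 2.38% lower). The median of the 9 was -0.12, beside 0.010 over all genes.

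Whether IL-4 acted differently in the presence of Wnt3a depends on which library received it. If the remainder is Wnt3a+IL-4, the interaction called 0 of 9 genes in edgeR and 0 in DESeq2, with 2 at an unadjusted p below 0.05, where 0.105% of all genes were called (0.0403% higher and 0.0644% lower). The pair below that p were *Smad7* (0.59 ± 0.19, adjusted p = 0.24) and *Smad4* (-0.29 ± 0.13, adjusted p = 0.37). Under this assignment the effect of IL-4 on *Tgfbi* was -0.36 with Wnt3a and -0.38 without it on the log2 scale, a difference of 0.02 ± 0.12 (adjusted p = 0.98). If the difference is Wnt3a+IL-4, the interaction called 3 of 9 genes, *Tgfbi*, *Smad3* and *Tgfbr2*, all higher, where 7.33% of all genes were called (2.91% higher and 4.42% lower).

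The genes that store and release TGFβ included large changes with Wnt3a. Of 18 such genes 16 were tested, and with IL-4 alone 1 was higher and 2 were lower (3.4% of all genes were called). In the difference 6 were higher and 3 lower (23.2% of all genes were called), and in the remainder 7 were higher and 2 lower (25.3% of all genes). The median log2 fold changes of the 16 were 0.14, 0.10 and 0.26. *Mmp14*, a membrane protease that can cleave the latent complex, was at 56.7, 61.8 and 64.7 CPM in untreated cells, 44.8, 40.2 and 43.2 CPM with IL-4, 485, 534 and 503 CPM in the difference and 371, 411 and 358 CPM in the remainder. It rose by 3.06 ± 0.09 on the log2 scale in the difference (adjusted p = 3.2e-11) and fell by 0.51 ± 0.08 with IL-4 alone (adjusted p = 0.0025). *Thbs1*, encoding thrombospondin 1, which can activate latent TGFβ, was at 122, 108 and 135 CPM in untreated cells, 39.3, 51.8 and 67.2 CPM with IL-4, 723, 771 and 714 CPM in the difference and 456, 668 and 401 CPM in the remainder. It rose by 2.6 ± 0.19 in the difference (adjusted p = 3.9e-07) and by 2.06 ± 0.19 in the remainder (adjusted p = 2.4e-06), and fell by 1.21 ± 0.19 with IL-4 (adjusted p = 0.0021). For both genes, as for *Tgfbi*, all Wnt3a-treated libraries were above the untreated ones and all IL-4 libraries below them.

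Other genes of latency and release went both ways. *Igf2r* and *Emilin1* were named after their values were seen. *Igf2r* rose by 0.39 ± 0.08 in the difference (adjusted p = 0.0024) and by 0.45 ± 0.08 in the remainder (adjusted p = 0.00062). *Emilin1* rose by 0.45 ± 0.11 in the difference (adjusted p = 0.0086) and by 0.58 ± 0.11 in the remainder (adjusted p = 0.0011). *Plau*, encoding the protease urokinase, was at 29.99, 32.5 and 32.2 CPM in untreated cells, 28.5, 37.1 and 36.0 CPM with IL-4, 11.3, 11.7 and 12.3 CPM in the difference and 18.01, 14.6 and 19.97 CPM in the remainder. It fell by 1.42 ± 0.13 in the difference (adjusted p = 2.7e-06) and by 0.85 ± 0.13 in the remainder (adjusted p = 0.0002), and was higher in the remainder than in the difference by 0.57 ± 0.13 (adjusted p = 0.023). *Nrros*, which anchors latent TGFβ on myeloid cells, was abundant at 430 to 483 CPM in untreated cells and fell by 0.33 ± 0.08 in the difference (adjusted p = 0.0084), with -0.11 ± 0.08 in the remainder (adjusted p = 0.37). *Lrrc32*, another anchor of latent TGFβ, was named after its values were seen. It was at 0.322, 0.515 and 0.188 CPM in untreated cells, 1.86, 2.17 and 1.08 CPM with IL-4, 0.229, 0.488 and 0.436 CPM in the difference and 3.73, 3.44 and 3.94 CPM in the remainder, and rose by 2.31 ± 0.38 with IL-4 (adjusted p = 0.0027) and by 3.42 ± 0.35 in the remainder (adjusted p = 6.4e-06).

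Among coreceptors and decoys, the genes called lower were *Bambi* and *Nrp1*. Of 8 genes 7 were tested, with 0 called with IL-4 alone in edgeR and in DESeq2 and 0 at an unadjusted p below 0.05. In the difference 0 were higher and 2 lower, where 23.2% of all genes were called, and in the remainder 1 was higher and 2 lower, where 25.3% were. *Bambi*, a decoy receptor that lacks the kinase, was at 13.3, 17.6 and 26.8 CPM in untreated cells, 17.7, 19.9 and 29.7 CPM with IL-4, 4.86, 6.11 and 10.1 CPM in the difference and 6.83, 7.93 and 12.4 CPM in the remainder. It fell by 1.47 ± 0.32 (adjusted p = 0.0039) and by 1.09 ± 0.31 (adjusted p = 0.018). *Nrp1*, a coreceptor for several ligands including TGFβ, was at 267, 263 and 335 CPM in untreated cells, 242, 251 and 300 CPM with IL-4, 164, 182 and 187 CPM in the difference and 112, 155 and 156 CPM in the remainder. It fell by 0.70 ± 0.13 (adjusted p = 0.0015) and by 1.03 ± 0.13 (adjusted p = 5.3e-05). The coreceptor *Eng*, named after its values were seen, rose in the remainder by 0.35 ± 0.10 (adjusted p = 0.021), in 2 of 3 mice.

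In the sister branch of bone morphogenetic proteins (BMPs) and activins, the receptor and Smad genes that were called with Wnt3a were all lower. Of 12 such genes 9 were tested, and the called ones numbered 3 in the difference and 4 in the remainder, with 0 higher in either. DESeq2 called 3 in the difference and 3 in the remainder. Over all genes, 23.2% were called in the difference (11.8% higher and 11.4% lower). In the remainder 25.3% of all genes were called (13.6% higher and 11.7% lower). With IL-4 alone 0 were called in edgeR and in DESeq2, and 0 had an unadjusted p below 0.05. *Smad5*, which carries BMP signals, was at 31.8, 22.6 and 27.6 CPM in untreated cells, 28.2, 28.9 and 29.4 CPM with IL-4, 17.5, 17.1 and 17.96 CPM in the difference and 18.1, 21.0 and 18.3 CPM in the remainder. It fell by 0.64 ± 0.12 (adjusted p = 0.0013) and by 0.52 ± 0.12 (adjusted p = 0.005). *Smad6*, the inhibitory Smad of this branch, fell by 1.05 ± 0.28 (adjusted p = 0.016) and by 0.99 ± 0.28 (adjusted p = 0.02). The third gene called in both was *Smad1*, which fell by 0.38 ± 0.10 (adjusted p = 0.013) and by 0.44 ± 0.10 (adjusted p = 0.0048), and the fourth in the remainder was *Acvr2b*, an activin receptor, which fell by 0.91 ± 0.31 (adjusted p = 0.045). Both were named after their values were seen.

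Of 18 BMP, activin and GDF ligands and traps only 5 were tested. With IL-4 alone 0 were called in edgeR and in DESeq2, with 1 at an unadjusted p below 0.05. Of the 5, 1 was higher and 2 were lower in both kinds of Wnt3a-treated library, where 23.2% and 25.3% of all genes were called. *Bmp2* was at 5.59, 4.76 and 6.21 CPM in untreated cells, 3.18, 3.77 and 5.56 CPM with IL-4, 0.515, 1.04 and 1.16 CPM in the difference and 2.05, 2.34 and 2.37 CPM in the remainder. It fell by 2.62 ± 0.29 in the difference (adjusted p = 1.2e-05) and by 1.29 ± 0.25 in the remainder (adjusted p = 0.0016), and the remainder was higher than the difference by 1.33 ± 0.31 (adjusted p = 0.022). *Gdf15*, a stress-induced cytokine of the same superfamily, fell by 2.16 ± 0.22 (adjusted p = 7.8e-06) and by 1.66 ± 0.22 (adjusted p = 5.7e-05). *Bmp1*, which despite its name is a matrix protease rather than a BMP ligand, rose from 0.43, 0.643 and 0.69 CPM to 7.498, 6.04 and 5.09 CPM in the difference and 6.58, 5.96 and 4.60 CPM in the remainder. Its log2 fold changes were 3.40 ± 0.33 (adjusted p = 3.9e-06) and 3.28 ± 0.33 (adjusted p = 5.1e-06).

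Among 32 Smad partners and regulators 30 were tested, with 0 called with IL-4 alone in edgeR, 1 in DESeq2 and 4 at an unadjusted p below 0.05. In the difference 2 were higher and 2 lower, where 23.2% of all genes were called, and in the remainder 3 were higher and 6 lower, where 25.3% were. The ubiquitin ligases of this list, which mark receptors and Smads for degradation, went both ways. *Smurf1* was at 39.8, 50.8 and 47.9 CPM in untreated cells, 54.8, 52.8 and 48.5 CPM with IL-4, 70.6, 76.4 and 68.6 CPM in the difference and 87.3, 86.8 and 84.6 CPM in the remainder. It rose by 0.64 ± 0.09 (adjusted p = 0.00016) and by 0.90 ± 0.09 (adjusted p = 5.9e-06). *Wwp1* fell by 1.08 ± 0.21 (adjusted p = 0.0017) and by 1.18 ± 0.21 (adjusted p = 0.00075), and *Nedd4l* fell by 0.32 ± 0.09 (adjusted p = 0.015) and by 0.41 ± 0.09 (adjusted p = 0.0027). The deubiquitinase gene *Usp11* rose by 0.53 ± 0.16 (adjusted p = 0.027) and by 0.51 ± 0.16 (adjusted p = 0.028).

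The TAK1 branch, through which TGFβ receptors reach MAP kinases without Smads, had few calls. All 15 genes were tested, and 0 were called in the difference in edgeR and in DESeq2, with 2 at an unadjusted p below 0.05. With IL-4 alone 0 were called by either tool and 2 had an unadjusted p below 0.05. In the remainder 1 was called, *Tab2*, an adaptor of the kinase, which fell by 0.33 ± 0.09 (adjusted p = 0.015). Over all genes, 23.2% were called in the difference, 3.4% with IL-4 alone and 25.3% in the remainder.

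**Figure D4:**
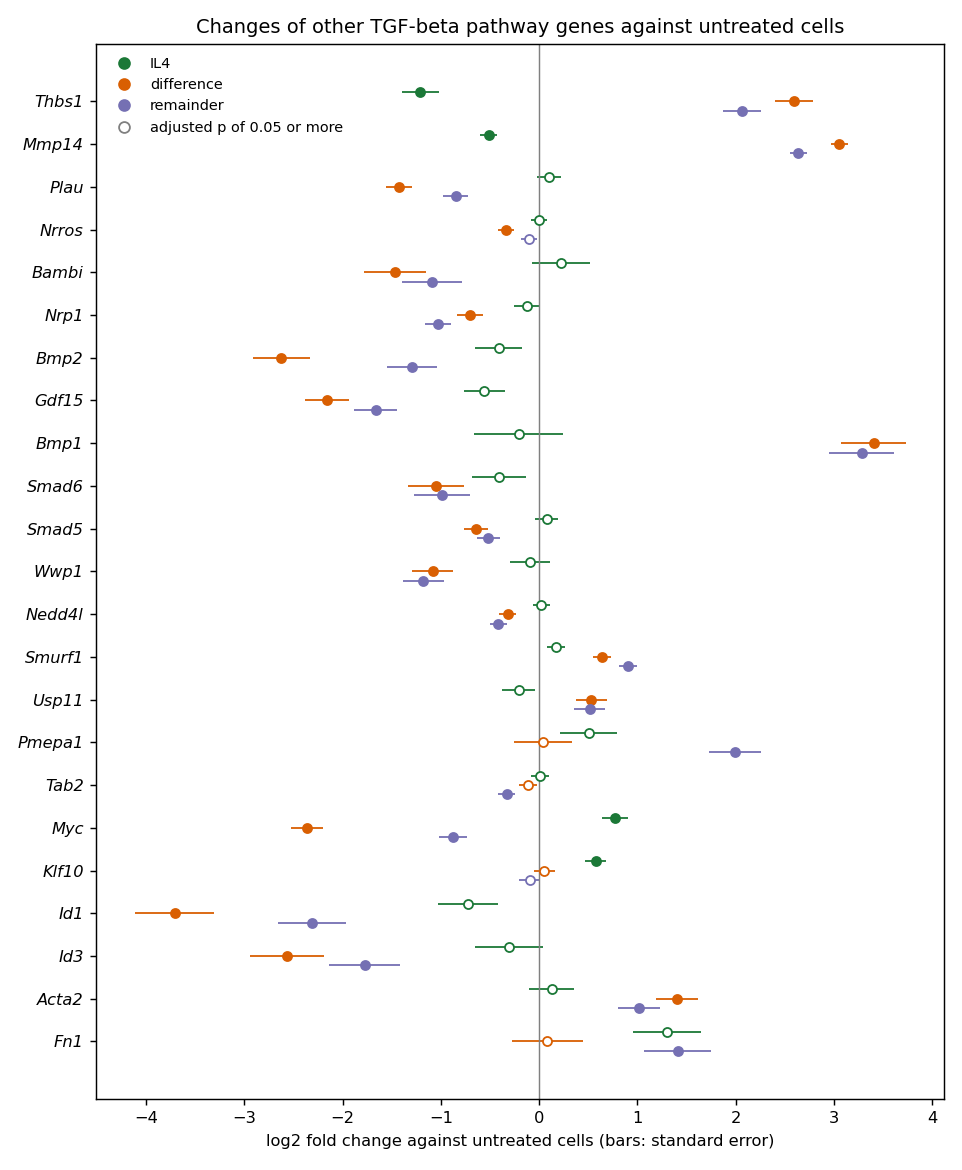
log2 fold change against untreated cells (x axis) of the TGFβ pathway and target genes outside the 10 (y axis), chosen from fixed lists by the size of their called changes, for the IL-4, difference and remainder libraries, n = 3 each. Bars are approximate standard errors and filled points have an adjusted p below 0.05. *Mmp14* and *Thbs1* lie on opposite sides of 0 for IL-4 and for the Wnt3a-treated libraries, and *Id1* is farthest to the left at -3.71.

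Known direct targets of TGFβ went both ways. Of 24 genes 22 were tested, and 2 were higher and 0 lower with IL-4 alone, 3 higher and 5 lower in the difference, and 8 higher and 5 lower in the remainder, where 3.4%, 23.2% and 25.3% of all genes were called, with medians of 0.18, 0.03 and 0.08. *Ccn2*, a matricellular target, was not called in any comparison with untreated cells and was at or below 1.52 CPM in every library.

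The *Id* genes, inhibitors of differentiation that respond to BMPs as well as to TGFβ, made up 3 of the 5 targets that fell in each kind of Wnt3a-treated library. *Id3* was at 178, 195 and 154 CPM in untreated cells, 164, 133 and 129 CPM with IL-4, 33.7, 28.8 and 26.6 CPM in the difference and 62.0, 15.4 and 76.9 CPM in the remainder. It fell by 2.56 ± 0.38 in the difference (adjusted p = 0.0002) and by 1.77 ± 0.36 in the remainder (adjusted p = 0.0022), with mouse 2 apart in the remainder. *Id1* fell from 6.77, 8.04 and 6.08 CPM to 0.515, 0.611 and 0.436 CPM in the difference and 1.37, 0.430 and 2.43 CPM in the remainder, by 3.71 ± 0.40 (adjusted p = 1.2e-05) and 2.31 ± 0.35 (adjusted p = 0.0002). *Id2* fell by 1.41 ± 0.11 (adjusted p = 4.8e-07) and by 1.12 ± 0.11 (adjusted p = 3.3e-06), and was named after its values were seen.

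*Myc*, which TGFβ represses in many epithelial cells, rose with IL-4 and fell with Wnt3a. It was at 10.7, 13.8 and 11.7 CPM in untreated cells, 18.3, 20.4 and 22.9 CPM with IL-4, 2.12, 2.38 and 2.54 CPM in the difference and 7.20, 5.78 and 6.77 CPM in the remainder. The log2 fold changes were 0.77 ± 0.13 (adjusted p = 0.0039), -2.36 ± 0.16 (adjusted p = 1.6e-07) and -0.87 ± 0.14 (adjusted p = 0.00036), and the remainder was higher than the difference by 1.49 ± 0.17 (adjusted p = 9.7e-05). *Klf10*, an early TGFβ-inducible gene, rose with IL-4 alone by 0.58 ± 0.11 (adjusted p = 0.0069). *Acta2*, encoding smooth muscle actin, was low throughout and rose by 1.40 ± 0.21 in the difference (adjusted p = 0.00024) and by 1.02 ± 0.21 in the remainder (adjusted p = 0.0027).

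*Pmepa1*, a TGFβ target whose product limits Smad signaling, rose in the remainder, with 0.04 ± 0.30 on the log2 scale in the difference (adjusted p = 0.95). It was at 1.24, 1.54 and 1.51 CPM in untreated cells, 2.34, 2.24 and 1.44 CPM with IL-4, 1.83, 1.34 and 1.16 CPM in the difference and 7.02, 3.99 and 6.04 CPM in the remainder. The remainder was higher than the difference by 1.96 ± 0.26 on the log2 scale (adjusted p = 0.00052) and higher than untreated cells by 1.99 ± 0.26 (adjusted p = 6.5e-05). *Fn1*, encoding fibronectin, was at 2.26, 5.72 and 5.64 CPM in untreated cells, 10.1, 9.52 and 13.6 CPM with IL-4, 3.03, 7.45 and 3.78 CPM in the difference and 12.98, 13.9 and 8.94 CPM in the remainder. It was higher in the remainder than in the difference by 1.33 ± 0.34 (adjusted p = 0.039), with 1.30 ± 0.34 for IL-4 against untreated cells (adjusted p = 0.057).

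Genes that depend on TGFβ in microglia also went both ways. Of 16 genes 14 were tested, with 0 higher and 2 lower with IL-4 alone, 3 higher and 3 lower in the difference, and 3 higher and 4 lower in the remainder, where 3.4%, 23.2% and 25.3% of all genes were called. *Cx3cr1*, the fractalkine receptor, was at 319, 299 and 290 CPM in untreated cells, 165, 123 and 124 CPM with IL-4, 244, 265 and 256 CPM in the difference and 86.3, 79.0 and 118 CPM in the remainder. It fell by 1.14 ± 0.14 with IL-4 (adjusted p = 0.00022) and by 1.68 ± 0.14 in the remainder (adjusted p = 7.9e-07), with -0.25 ± 0.14 in the difference (adjusted p = 0.21), and the remainder was lower than the difference by 1.44 ± 0.14 (adjusted p = 3.4e-05). *P2ry13*, a purinergic receptor, fell by 0.90 ± 0.17 with IL-4 (adjusted p = 0.0083) and rose by 0.99 ± 0.16 in the difference (adjusted p = 0.00036).

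Other microglial genes were called with Wnt3a. *Gas6*, a ligand for phagocytic receptors, was at 523, 694 and 674 CPM in untreated cells, 456, 439 and 492 CPM with IL-4, 276, 347 and 413 CPM in the difference and 229, 247 and 282 CPM in the remainder, and fell by 0.87 ± 0.14 (adjusted p = 0.00042) and by 1.32 ± 0.14 (adjusted p = 9.1e-06). *Fcrls*, an Fc receptor-like gene, fell by 1.02 ± 0.19 (adjusted p = 0.0012) and by 1.10 ± 0.19 (adjusted p = 0.0006). *Olfml3*, encoding a secreted glycoprotein, rose by 0.49 ± 0.11 (adjusted p = 0.0066) and by 0.52 ± 0.11 (adjusted p = 0.0036).

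Genes with patterns most like those of the pathway genes were sought over the 12 libraries among the genes averaging 5 CPM or more. These correlations describe 12 libraries that share treatment groups and mice. For *Tgfbi* the closest were *Smpdl3b* (Pearson r = 0.995), *Mmp14* (0.994) and *Sod2* (0.990). For *Tgfbr2* they were *Mbp* (0.952), *Cat* (0.951) and *Nfkbiz* (0.948), and for *Smad3* they were *Ikzf1* (0.946), *Cyfip2* (0.927) and *Rbm22* (0.926). *Tgfb3* was most like *Ctnnd1* (0.935), *Dgkg* (0.932) and *N4bp2l1* (0.929), and *Smad7* most like *Acyp1* (0.914), *Gm38345* (0.912) and *Mrpl24* (0.900).

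Markers of other cells moved with some treatments, and their part in the changes above was not tested. The 10 fibroblast and stromal markers, a cell type rich in TGFβ targets, summed to 9.35 to 21.4 CPM in untreated cells, 10.8 to 33.3 with IL-4, 6.33 to 12.5 in the difference and 7.31 to 17.6 in the remainder, with *Pdgfra*, *Lum* and *Thy1* at the floor everywhere. The 8 megakaryocyte and platelet markers, cells that store TGFβ, summed to 18.1 to 20.7 CPM in untreated cells, 19.6 to 25.3 with IL-4, 49.3 to 86.8 in the difference and 57.9 to 117 in the remainder. *Pf4*, which macrophages can also express, made up 44.1 to 112 CPM of the sums in Wnt3a-treated libraries, and *Gp9* was at the floor. The 10 neutrophil markers summed to 65.1 to 88.9 CPM in untreated cells, 101 to 108 with IL-4, 103 to 148 in the difference and 74.2 to 98.1 in the remainder, with *Ly6g* at the floor. The 8 dendritic cell markers summed to 22.8 to 27.7, 157 to 203, 59.5 to 68.6 and 242 to 269 CPM in the same order, most of it *Itgax*, while *Flt3* was at or below 0.329 CPM.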

How the data were processed

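RNA of BMDMs from 3 mice was sequenced as single reads in 12 samples. According to the labels and the study's methods, Trimmomatic 0.36 was used for trimming, STAR 2.6.0 for alignment to mm10 and HTSeq 0.11.1 for counting. The authors deposited the counts without normalization. The methods name UCSC genes, but the rows carry Ensembl identifiers, and 48058 of 48526 had a symbol. No row lacked a gene.

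Difference and remainder libraries were derived as described above and were non-negative in every gene. The 12 libraries held from 13342492 to 17453377 counts each, which limits values of a few reads, and floors cover counting error only. The fit used edgeR 4.0.16 in R 4.3.3 with TMM scaling and no term for the mouse. CPM per kilobase used the union of exons in GENCODE vM21, on the same build. Alternatives were DESeq2 1.42.0, other scalings and filters, the mouse as a replicate block, only the groups compared, the columns as deposited, and leaving out each mouse or library. In simulated counts of 12184 genes for the difference against untreated cells, 179 of 200 changed genes were recovered: 48 of 67 at 1.5-fold, 65 of 67 at 2-fold and 66 of 66 at 4-fold. Of 194 calls 15 were false, and a comparison without change gave 0 calls.

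Samples are paired by the labels because each mouse contributed to every group. Same-mouse libraries deviated from their group means with correlations between -0.42 and 0.45, and 6 of 18 pairs exceeded 0.1. The members and gene lists were chosen with earlier results of these data known. The mice were separate animals. From each list, the text names up to 2 called genes with the highest and up to 2 with the lowest log2 fold change in each comparison with untreated cells and between remainder and difference, requiring an average of 5 CPM in whichever group was higher and agreement in sign among 3 of 3 mice. For each member called against untreated cells or between remainder and difference, it names the 3 genes most correlated with it. Other genes are marked where they were named after their values were seen. *Ccn2*, *Malat1*, *Ranbp2* and *Trpm7* carry no such mark but also fall outside this rule. The same is true of the genes named from the IL-4, Wnt and cell type marker lists. Some genes of these lists are not reported here.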

Additional observations from a re-analysis of the deposited data

Results flagged for a closer look

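The effect of IL-4 differed with Wnt3a for *Tgfbi*, *Smad3* and *Tgfbr2* in a test of that difference, but only if the difference library is the one that received both agents. Under this assignment, the log2 fold change for IL-4 with Wnt3a minus that without it was 0.73 ± 0.12 for *Tgfbi* (edgeR's quasi-likelihood test, adjusted p = 0.0017), 0.98 ± 0.24 for *Smad3* (adjusted p = 0.021) and 0.49 ± 0.14 for *Tgfbr2* (adjusted p = 0.044). Without Wnt3a the fold change was below 0 for each, at -0.38, -0.56 and -0.15, and with Wnt3a it was above 0. Only the changes of *Tgfbi* were called, and both of its calls depended on single libraries. Without Wnt3a the adjusted p was 0.095 for *Smad3* and 0.55 for *Tgfbr2*. With Wnt3a it was 0.19 and 0.059, so a turn in direction was not shown for these genes. Under the opposite assignment the interaction term was 0.02 ± 0.12 for *Tgfbi* (adjusted p = 0.98), 0.14 ± 0.24 for *Smad3* (0.88) and -0.19 ± 0.14 for *Tgfbr2* (0.61). Of 13 genes known to respond to IL-4, the interaction called 1 higher and 11 lower under the assignment of the difference to both agents and 0 under the opposite one, where DESeq2 called 1 and 3 had an unadjusted p below 0.05 in edgeR. With the difference as the library given both agents, none of the 3 terms was called without mouse 3. The adjusted p was then 0.056 for *Tgfbi*, 0.41 for *Smad3* and 0.38 for *Tgfbr2*. The *Smad3* term was also not called without the untreated library of mouse 3 (adjusted p = 0.05) or the difference library of mouse 3 (0.062). The *Tgfbr2* term was not called without any 1 of 9 of the 12 libraries, with adjusted p values from 0.053 to 0.12.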

How the results depend on the processing

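The *Tgfbi* increase with Wnt3a, the fall of *Tgfb3*, *Smad3* and *Tgfbr2* in the remainder and the fall of *Smad7* in the difference kept their direction under every alternative. Over all alternatives for single genes, 1243 values kept direction and call, 60 lost a call, 38 gained one and 29 reversed. The cause of these changes was not tested.

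Reversals by setting were few. With total counts as library size, the log2 fold change in the difference was -0.019 for *Smad2* and -0.055 for *Smad4*. With the columns as deposited it was -0.015 for *Smad4* in the difference and 0.0086 for *Smad2* in the remainder, and the interaction under the first assignment (remainder as Wnt3a+IL-4) was 0.095 for *Tgfbr2*. Total-count scaling moved the median of all genes from -0.012 to -0.10 in the difference and from -0.024 to -0.13 in the remainder, and the calls split 1131 higher and 2238 lower in the difference (1462 and 1422 with TMM), 1293 and 2342 in the remainder (1687 and 1450) and 247 and 212 with IL-4 (287 and 135). *Tgfb1* was then called lower than untreated in both, at -0.29 (adjusted p = 0.0061) and -0.24 (adjusted p = 0.015) on the log2 scale. *Tgfbr2* was then called lower in the difference as well (-0.32, adjusted p = 0.015). It was also called lower with the columns as deposited, where the Wnt3a column takes the place of the difference (-0.35, adjusted p = 0.0069).

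Counts of pathway genes called with IL-4 alone were 2 in DESeq2, 2 with genes of at least 1 count, 0 with only the groups compared and 3 with the columns as deposited. Between remainder and difference they were 2 in DESeq2, 2 with total counts, 2 with at least 1 count, 2 with the mouse as replicate block, 0 with only the groups compared and 0 with the columns as deposited. The block changed no other call among the 9 genes. Over all genes, IL-4 alone gave 812 calls with at least 1 count and 708 with the columns as deposited. Remainder against difference gave 1454, 422 with only the groups compared and 0 with the columns as deposited, whose Wnt3a and Wnt3a+IL-4 values share reads. The interaction under the first assignment gave 165 in DESeq2, 575 with at least 1 count and 142 with the columns as deposited, and under the reverse assignment 1505 with at least 1 count. With at least 1 count the approximate standard error of *Tgfbr1* in the remainder was 0.10 in place of 0.32, and its adjusted p was 2.3e-11.

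Leaving out 1 mouse or library gave log2 ranges that crossed 0 for *Smad2* (-0.10 to 0.058) and *Smad4* (-0.14 to 0.0029) in the remainder, *Smad4* in the difference (-0.041 to 0.080) and *Tgfbr1* with IL-4 (-0.42 to 0.41) and between remainder and difference (-0.50 to 0.38). The same held against IL-4 alone for *Smad3* in the difference (-0.17 to 0.10) and *Smad7* in the remainder (-0.16 to 0.079), and for the first-assignment interaction of *Smad3* (-0.034 to 0.40) and *Tgfbi* (-0.083 to 0.13). Calls among the 9 genes ranged from 0 to 2 with IL-4, 2 to 6 in the difference, 1 to 4 in the difference against IL-4, 1 to 5 in the remainder against IL-4, 0 to 2 between remainder and difference and 0 to 3 for the reverse interaction. Over all genes they ranged from 77 to 532, 1220 to 3188, 1208 to 2805, 1043 to 3052, 97 to 1188 and 265 to 1459 in the same order, from 1375 to 3807 in the remainder and from 0 to 43 for the first-assignment interaction, with the lowest counts without mouse 3. Without mouse 3, *Smad7* was not called in the difference (adjusted p = 0.089) or the remainder (0.16), nor *Smad3* in the difference (0.14). Against IL-4 alone, *Tgfb1* was then not called in the difference (0.12) or the remainder (0.19). The same held there for *Tgfb3* in the difference (0.16) and the remainder (0.11), and for *Tgfbr2* in the remainder (0.074). Without this mouse, *Tgfbi* was not called with IL-4 alone (0.29) or between remainder and difference (0.3). The reverse interaction was then not called for *Tgfbi* (0.056), *Smad3* (0.41) or *Tgfbr2* (0.38).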
